A study of Mus musculus with 9 samples.

Results

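Gas5 and 7 other long non-coding RNAs that carry small nucleolar RNAs (snoRNAs) in their introns, namely Snhg1, Snhg3, Snhg5, Snhg6, Snhg8, Snhg12 and Zfas1, were examined in mouse mandible RNA-seq. The 8 genes were taken by symbol from a count table of 27179 genes, and all 8 were present and passed the filter on low counts. They were chosen by their values in the same comparison that is described here, Gas5 as a lower transcript near the targeted locus and the others as hosts elsewhere in the genome, so their differences between the genotypes are given as a description. Whole mandibles with the teeth were taken from male C57BL/6 mice at 6 months of age, and poly(A) RNA was sequenced from 5 wild-type (WT) mice and from 4 mice labelled FcgRIIB-/-. The latter are labelled as knockouts of the inhibitory Fc gamma receptor, and the label names no cell type. They were used in the study as a model of lupus with bone loss. The mandible is a mixed tissue of bone, tooth-forming cells, marrow, oral epithelium and attached muscle, and in such bulk samples fewer cells of a type and less RNA per cell cannot be told apart.

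snoRNAs guide the chemical modification of ribosomal RNA. Those with boxes C and D direct 2′-O-methylation and those with boxes H and ACA direct pseudouridylation. Most are cut out of introns of a host transcript, while the spliced exons leave the nucleus. The hosts in question have exons without a conserved long reading frame, and the spliced Gas5 RNA is known to be translated briefly and removed by nonsense-mediated decay, so that it builds up in growth-arrested cells in which translation is slow. Like the mRNAs of ribosomal proteins, Gas5 belongs to the 5′ terminal oligopyrimidine (TOP) class, whose transcripts start with a run of C and T. Mature Gas5 is also known to bind the glucocorticoid receptor.

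The start sites of the hosts are shown because the TOP run is the feature that ties Gas5 to the ribosomal protein mRNAs. RefSeq start sites (GRCm38.p6) were found for 7 of the 8 hosts, with 2 starts for Gas5. Each window runs from 20 bases before the annotated first base, and includes 30 bases from it onward, on the strand of the gene. Capitals mark every run of at least 5 C or T.
Gas5, first start, chr1:161034581-161034630, plus strand: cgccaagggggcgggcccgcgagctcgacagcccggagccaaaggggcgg
Gas5, second start, chr1:161035146-161035195, plus strand: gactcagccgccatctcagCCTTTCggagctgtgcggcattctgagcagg
Snhg1, chr19:8723467-8723516, plus strand: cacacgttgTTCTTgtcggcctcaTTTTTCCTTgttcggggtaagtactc
Snhg3, chr4:132353657-132353706, minus strand: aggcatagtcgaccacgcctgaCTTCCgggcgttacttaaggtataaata
Snhg5, chr9:88522868-88522917, minus strand: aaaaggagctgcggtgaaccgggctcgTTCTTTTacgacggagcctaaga
Snhg8, chr3:123508307-123508356, minus strand: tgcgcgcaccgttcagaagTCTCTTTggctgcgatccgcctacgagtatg
Snhg12, chr4:132308658-132308707, plus strand: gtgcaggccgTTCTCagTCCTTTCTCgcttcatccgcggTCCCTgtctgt
Zfas1, chr2:167062914-167062963, plus strand: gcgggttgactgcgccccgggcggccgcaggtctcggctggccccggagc

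A stricter pattern, a C at most 5 bases from the annotated first base that is followed by at least 4 further C or T, was present at 4 of these 8 starts, those of Snhg3, Snhg8, Snhg12 and the second start of Gas5. It was present at 18.3% of all 32851 RefSeq promoter entries and at 29 of 66 entries of ribosomal protein genes. The first Gas5 start and the Zfas1 start held no run of 5. These matches describe the annotated windows only.

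The targeted gene was examined first. Fcgr2b lay between 17.0 and 38.3 CPM in the 5 WT mice and between 26.0 and 32.1 CPM in the 4 mice labelled FcgRIIB-/-, where CPM is the count scaled by the TMM-adjusted library size. The labelled libraries were thus not lower (log2 fold change 0.21, standard error 0.20, adjusted p = 0.442), and with WT replicate 2 left out the gene was called higher (0.46, adjusted p = 0.0131). Every direction below is therefore between libraries by their labels. The libraries held between 21453880 and 28991631 counts. Levels are given in CPM and differences as log2 fold changes from edgeR of the libraries labelled FcgRIIB-/- over WT. Of 16329 tested genes, 14.0% passed an adjusted p of 0.05 as higher and 19.3% as lower, 33.3% in all. With library totals in place of TMM factors the split moved from 2289 higher and 3144 lower genes to 1309 higher and 3781 lower genes.

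Gas5 (gene identifier 14455, chr1:161034601-161038539, plus strand) was the most abundant of the 8 hosts in reads and the only one with a lower level in the libraries labelled FcgRIIB-/-. The 5 WT mice, in replicate order, had 4628, 3636, 4444, 4582 and 4074 counts, whereas the 4 labelled mice had 1920, 1921, 2401 and 1464. In CPM these were 168, 146, 171, 168 and 159 against 67.3, 88.8, 102 and 74.2. The lowest WT mouse therefore lay above the highest labelled mouse, with a clear gap between the groups. The mean level in WT was 162 ± 10.3 CPM (SD, n = 5) against 83.0 ± 15.4 CPM (SD, n = 4) in the labelled libraries, a log2 fold change of -0.97 (standard error, SE, of 0.12), or 1.96-fold lower. With every alternative scaling, filter and tool, and with each mouse left out in turn, it stayed between -1.08 and -0.88.

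The other 7 hosts were level or higher. Zfas1 (chr2:167062934-167065862, plus strand), a host of Snord12 that lies head to head with Znfx1, was at 30.2, 26.4, 32.6, 29.7 and 25.8 CPM in WT and at 33.8, 38.3, 46.9 and 33.1 CPM in the labelled libraries, a log2 fold change of 0.39 (SE 0.11). Its groups were close but did not overlap. Snhg6 (chr1:9942025-9944118, minus strand), the host of Snord87, was at 11.2, 12.3, 13.4, 11.7 and 12.0 CPM in WT and at 15.2, 16.2, 20.04 and 15.1 CPM in the labelled libraries, a log2 fold change of 0.45 (SE 0.10). It lies on the same chromosome as Gas5 and Fcgr2b, but near the opposite end. Snhg12 (chr4:132308678-132311024, plus strand), which carries 4 snoRNAs, was at 14.7, 14.8, 14.4, 15.2 and 12.7 CPM in WT and at 17.6, 18.5, 20.4 and 17.7 CPM in the labelled libraries, a log2 fold change of 0.37 (SE 0.08). In Snhg6, Snhg12 and Zfas1 alike the highest of the 4 labelled mice was replicate 3, which was also the highest of its group for Gas5.

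Snhg1 (chr19:8723487-8726326, plus strand), whose introns hold a cluster of box C/D snoRNAs, was at 29.5 ± 2.40 CPM (SD, n = 5) in WT, compared with 35.4 ± 6.48 CPM (SD, n = 4) in the labelled libraries, a log2 fold change of 0.26 (SE 0.11). Snhg8 (chr3:123507552-123508336, minus strand), the host of Snora24, was at 24.9 ± 3.69 CPM (SD, n = 5) and 29.2 ± 2.93 CPM (SD, n = 4), a log2 fold change of 0.23 (SE 0.12). For both genes the groups overlapped. Snhg3 (chr4:132351933-132353686, minus strand), the host of Snora73a and Snora73b, had a log2 fold change of 0.12 (SE 0.11), and Snhg5 (chr9:88521052-88522897, minus strand) had one of 0.07 (SE 0.12). The Snhg5 value was -0.05 without replicate 3 labelled FcgRIIB-/- and 0.00 with library totals, so no direction can be given for it. The Snhg1 value was 0.13 without replicate 3 labelled FcgRIIB-/-. That of Snhg3 was 0.05 without replicate 2 labelled FcgRIIB-/- and with library totals, and 0.21 without replicate 1 labelled FcgRIIB-/-.

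In the fit over all genes Gas5 passed as lower, and Snhg6, Snhg12 and Zfas1 passed as higher, beside 33.3% of all tested genes. The groups did not overlap in those same 4 hosts, and did not in 29.6% of all tested genes. Because the hosts were taken with this comparison known, nothing is read from these counts. Zfas1 was not among them with library totals or without replicate 3 labelled FcgRIIB-/-.

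**Figure D1:**
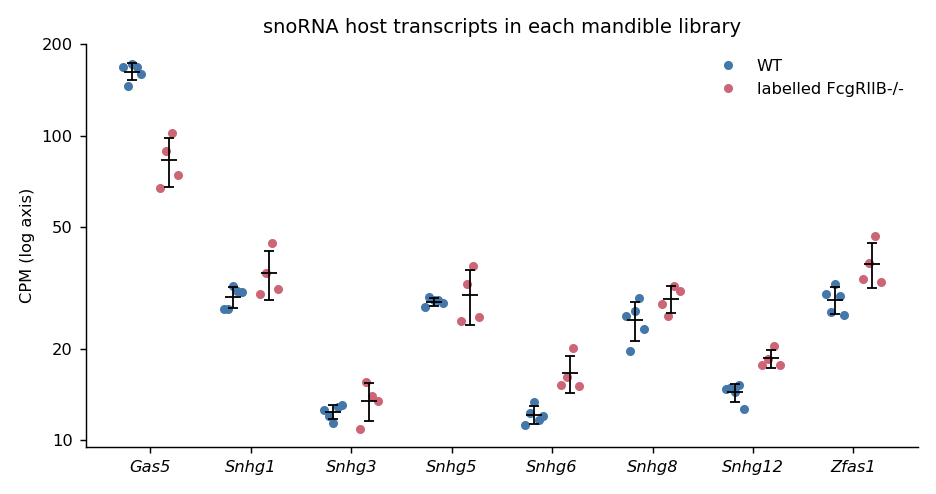
Level of each of the 8 snoRNA host transcripts in CPM (log axis) in 5 WT mice (blue) and 4 mice labelled FcgRIIB-/- (red). Points are mice, and black lines give the mean and SD. Gas5 lies between 146 and 171 CPM in WT and between 67.3 and 102 CPM in the labelled libraries, whereas the red points of the other 7 hosts lie at or above the blue ones, or overlap with them.

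Gas5 stood above the other hosts also per length. With the median exonic length of its GENCODE transcripts that retain no intron, 502 bases, it was at 324 CPM per kb in WT and 165 CPM per kb in the labelled libraries. In WT it was followed by Snhg1 at 53.7, Snhg8 at 51.0, Zfas1 at 39.2, Snhg5 at 36.6, Snhg3 at 28.3, Snhg6 at 21.7 and Snhg12 at 15.7 CPM per kb. The WT ranges of Snhg1 and Snhg8, of Snhg8 and Zfas1, and of Zfas1 and Snhg5 overlapped, whereas those of Snhg5, Snhg3, Snhg6 and Snhg12 were separate. This order depends on the transcript model, since 20 of the 25 GENCODE transcripts of Gas5 retain an intron and the one tied to a RefSeq entry has 2556 bases. On that length Gas5 was at 63.5 CPM per kb in WT, still above Snhg1 at 48.8, but at 32.5 CPM per kb in the labelled libraries, below Snhg1 at 58.6, Zfas1 at 51.5, Snhg6 at 41.5 and Snhg8 at 37.7.

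A measure that needs no scaling between libraries is the share of Gas5 in the reads on the 8 hosts. It was 53.0%, 50.7%, 51.8%, 51.5% and 52.2% in WT replicates 1 to 5, and 29.5%, 32.7%, 32.1% and 30.7% in replicates 1 to 4 labelled FcgRIIB-/-. The mice of a genotype lay close together, at 51.8 ± 0.83% (SD, n = 5) for WT against 31.3 ± 1.42% (SD, n = 4) for the labelled libraries. The 95% Wilson interval reached down to 49.6% for the lowest WT mouse and up to 33.9% for the highest labelled mouse, which covers counting error only. Gas5 was chosen as lower in this comparison. The separation of the shares follows in large part from that choice and is a description only. The reads on the other 7 hosts together numbered 3963 ± 325 (SD, n = 5) and 4230 ± 775 (SD, n = 4).

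**Figure D2:**
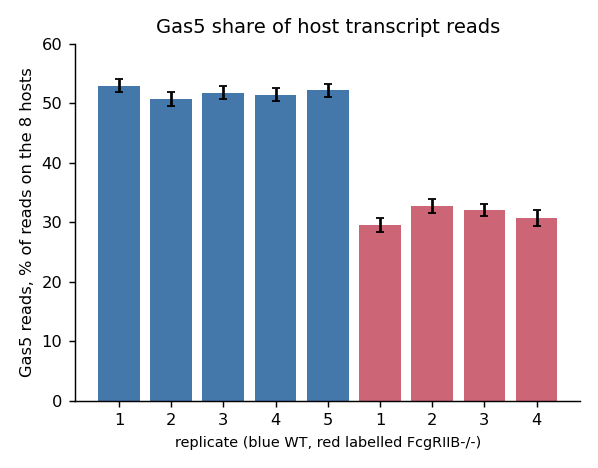
Gas5 reads as a percentage of all reads on the 8 hosts in each library, WT in blue and labelled FcgRIIB-/- in red, with 95% Wilson intervals. The WT bars stand between 50.7% and 53.0%, and the labelled ones between 29.5% and 32.7%. The intervals cover counting error only, and Gas5 was chosen as lower in this comparison.

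The snoRNAs inside the hosts were examined next. RefSeq places 29 snoRNA genes within the spans of the 8 hosts. Of these, 11 had a row in the count table and 9 passed the filter. Mature snoRNAs are short and have no poly(A) tail, and the libraries were made from poly(A) RNA, so that reads from a snoRNA, its precursor or a host transcript that retains the intron cannot be told apart. Of 8 snoRNAs in Gas5, only Snord47 had a row. Snord47, a box C/D snoRNA, is shown as GENCODE gives it (GRCm38, chr1:161038082-161038158, plus strand), with box C (TGATGA) and box D (CTGA) in capitals.
Snord47: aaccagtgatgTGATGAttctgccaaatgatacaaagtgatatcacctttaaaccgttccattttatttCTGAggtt

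Both boxes, in this order, are found in 75.5% of 98 GENCODE snoRNA transcripts named Snord and in 24.0% of all 1507. Snord47 was not lower in the labelled libraries. The WT mice had 29, 52, 37, 22 and 31 counts in replicate order, and the labelled mice had 53, 56, 56 and 46. Its WT level of 1.32 ± 0.49 CPM (SD, n = 5) compared with 2.29 ± 0.31 CPM (SD, n = 4) in the labelled libraries, with WT replicate 2 at 2.09 CPM inside the range of the labelled mice. The log2 fold change was 0.80 (SE 0.26) and passed as higher with an adjusted p of 0.0394 from edgeR's quasi-likelihood test. This call is weak, as it was lost in 10 of 16 alternatives, with an adjusted p between 0.00815 and 0.0937 over the 16.

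Gas5 had 160, 69.9, 120, 208 and 131 reads for each Snord47 read in WT replicates 1 to 5, and 36.2, 34.3, 42.9 and 31.8 in replicates 1 to 4 labelled FcgRIIB-/-. The ratio was therefore lower in every labelled mouse than in any WT mouse. Gas5 was chosen as lower in this comparison, so its ratio to a row that was not lower separates largely by that choice. The Snord47 counts, between 22 and 56, also make the ratio coarse. Of the 25 GENCODE transcripts of Gas5, 2 have an exon over Snord47. Since the sources used here do not give how reads on more than 1 gene were treated, reads on the snoRNA and on its host cannot be told apart.

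The 8 other tested snoRNAs inside the hosts did not pass the test. Their log2 fold changes lay between -0.16 for Snora73a in Snhg3 (SE 0.27, adjusted p = 0.683) and 0.44 for Snord99 in Snhg12 (SE 0.25, adjusted p = 0.201). Snord22 in Snhg1 had 0.12 and Snord12 in Zfas1 had 0.22, and counts between 12 and 89 in all of these left only coarse differences detectable. Of all 113 snoRNA rows, 42 were tested. In edgeR's test 2 passed as higher (4.76%) and 0 as lower, beside 14.0% higher and 19.3% lower over all tested genes. Of the 42, 1 had an unadjusted p under 0.05 as lower in that test, and DESeq2 called 3 higher and 0 lower. Besides Snord47, the other row that edgeR called was Snord72, with a log2 fold change of 0.99 (SE 0.32, adjusted p = 0.0380). That call was lost in 9 of 15 alternatives.

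Zbtb37, which encodes a zinc finger protein, overlaps the Gas5 start on the opposite strand and is transcribed away from it. It was at 4.20, 4.78, 3.86, 3.85 and 4.06 CPM in WT and at 2.14, 2.63, 2.67 and 1.32 CPM in the labelled libraries. It fell with a log2 fold change of -0.92 (SE 0.21, adjusted p = 0.00764), without overlap between the groups, and the call held in all 16 alternatives.

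Gas5 had between 30.6 and 44.4 reads for each Zbtb37 read in WT. In the labelled libraries it had between 31.5 and 56.3, so this ratio overlapped between the groups. No base of a GENCODE exon of Gas5 lies within an exon of Zbtb37, but whether the authors counted by strand is not given in the sources used here. Cenpl, a centromere protein gene on the other side of Gas5, had a log2 fold change of -0.13 (SE 0.11, adjusted p = 0.358), and Serpinc1, a gene of a blood clotting inhibitor, had at most 6 counts in any mouse and was not tested.

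**Figure D3:**
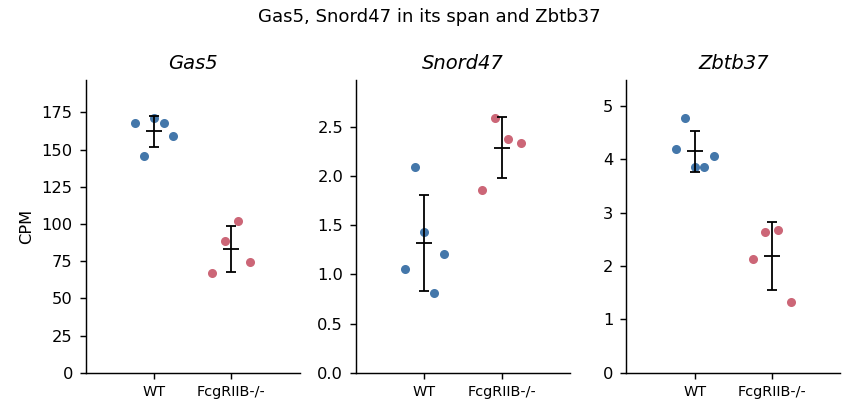
CPM of Gas5, of Snord47 within its span, and of the overlapping gene Zbtb37 in 5 WT mice (blue) and 4 mice labelled FcgRIIB-/- (red), with mean and SD in black and each axis starting at 0. Gas5 and Zbtb37 are lower in every labelled mouse than in any WT mouse, and the Snord47 groups overlap through WT replicate 2.

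Fcgr2b lies 9.92 Mb from Gas5 on chromosome 1. Between them, 74 genes were tested, of which 13 passed as higher and 21 as lower, or 45.9%, beside 33.3% of all tested genes. Within 1 Mb of Gas5, 3 of 15 tested genes passed as higher and 4 as lower. Among the neighbours of the other hosts, Prss12, a serine protease gene beside the Snhg8 end, rose with a log2 fold change of 0.48 (SE 0.08, adjusted p = 0.00234). Znfx1, the zinc finger helicase gene that overlaps Zfas1, fell with a log2 fold change of -0.30 (SE 0.07, adjusted p = 0.00775), opposite to Zfas1, although their exons share 82 bases. Rcc1, the nucleotide exchange factor of Ran beside Snhg3, had -0.29 (SE 0.09, adjusted p = 0.0371), a call that 8 of 16 alternatives lost. Wdr74 beside Snhg1 had 0.23 (adjusted p = 0.0507), and Slc3a2 beside Snhg1, Syncrip and Zfp949 around Snhg5, Trnau1ap beside Snhg12 and Sgk3 beside Snhg6 did not pass. Wdr74 and Sgk3 each passed in 6 of 16 alternatives, and Syncrip and Trnau1ap each in 1.

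Most other non-coding hosts were level or higher too. These hosts and the gene lists below were chosen with earlier results of these data known, so their shares are a description. Of 13 further non-coding hosts known by name, 5 rose (38.5%), 0 fell and 8 did not pass, beside 14.0% higher and 19.3% lower over all tested genes. Their median log2 fold change was 0.31, beside 0.01 over all tested genes. Snhg14, the long transcript of the Prader-Willi region, rose most, from 4.08 ± 0.82 CPM (SD, n = 5) to 7.81 ± 0.51 CPM (SD, n = 4), a log2 fold change of 0.94 (SE 0.16, adjusted p = 0.00219). Epb41l4aos rose by 0.63 (adjusted p = 0.0170), Snhg20 by 0.55 (adjusted p = 0.0146), Dancr, a host linked to the undifferentiated state of progenitor cells, by 0.51 (adjusted p = 0.0157) and Snhg18 by 0.34 (adjusted p = 0.0239) on the log2 scale. The Snhg18 call was lost with library totals and without replicate 2 or 4 labelled FcgRIIB-/-. Rian, the imprinted host of a large snoRNA cluster, was at 58.7 ± 12.4 and 59.1 ± 8.67 CPM (SD, n = 5 and 4) and did not pass. Between 4 and 6 of the 13 passed as higher in every alternative, and 0 passed as lower by edgeR or DESeq2 or had an unadjusted p under 0.05 as lower. By GENCODE gene type, 20 tested hosts outside the 8, some of them also among the 13, were not listed as protein-coding. One of these, Cct6a, does encode a protein, a chaperonin subunit, and did not pass (0.14, adjusted p = 0.241). The 20 held 7 higher genes (35.0%) and 1 lower gene (5.0%), AI506816, with a log2 fold change of -1.10 (SE 0.27, adjusted p = 0.0108) at 1.26 and 0.57 CPM.

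**Figure D4:**
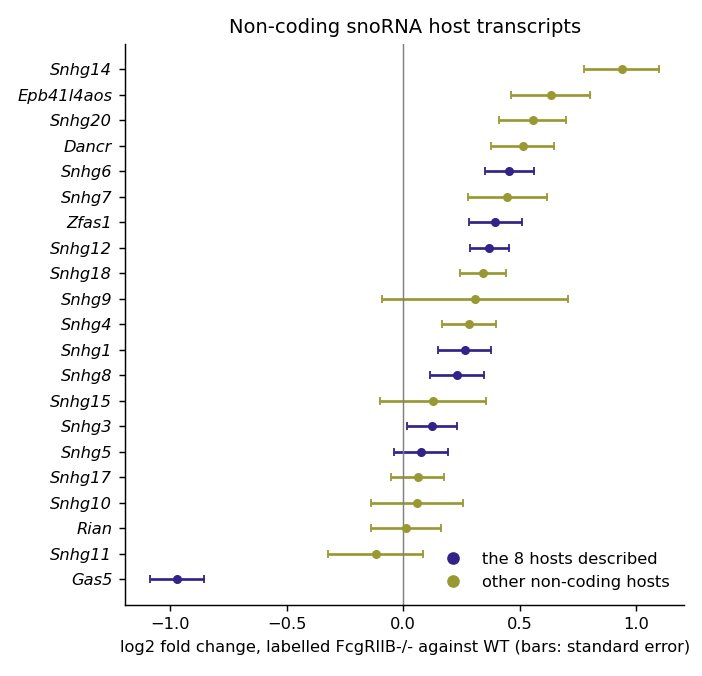
log2 fold change of the libraries labelled FcgRIIB-/- over WT, with standard errors, for the 8 hosts described (dark blue) and 13 other non-coding hosts (olive), sorted by value. Gas5 at -0.97 is far to the left, and of the others Snhg11 alone lies to the left of 0, within its error.

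The mRNAs that share the TOP class with Gas5 were level or higher for the most part. Over all tested genes, 14.0% were higher and 19.3% lower. Of 76 cytosolic ribosomal protein mRNAs, 28 rose (36.8%), 0 fell and 48 did not pass, with a median log2 fold change of 0.20. Rpl23 rose most, with 0.45 (SE 0.10, adjusted p = 0.00705), followed by Rpl26 with 0.43 and Rpl21 with 0.42, while the most abundant, Rpl4, had 0.17 (adjusted p = 0.124). The number of higher genes was 13 with library totals, 33 with RLE and 38 with upper-quartile scaling, 47 by DESeq2, and 18 without replicate 3 labelled FcgRIIB-/-. As lower, 0 passed in any of these, and 0 had an unadjusted p under 0.05 in edgeR's test. Among 19 other TOP mRNAs of the translation machinery, 4 rose (21.1%) and 1 fell (5.26%). With 1 mouse left out the number of higher genes was as low as 1 (without WT replicate 2 and without replicate 1 or 3 labelled FcgRIIB-/-), and it was 2 without WT replicate 1 or 3 or without replicate 2 labelled FcgRIIB-/-. Eef1d, a subunit of the elongation factor 1 exchange complex, rose by 0.42 (adjusted p = 0.00309) on the log2 scale. Pabpc1, the cytoplasmic poly(A)-binding protein, had -0.27 (adjusted p = 0.0330), a call lost in 7 of 16 alternatives, and Eef1a1, the most abundant, had 0.01 (adjusted p = 0.929).

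Some of 30 protein-coding hosts of the translation and nucleolar machinery are also ribosomal protein genes. Of these 30, 7 rose (23.3%) and 0 fell in edgeR's test, beside 14.0% higher and 19.3% lower over all tested genes. Among the 30, 1 had an unadjusted p under 0.05 as lower in edgeR's test, and DESeq2 called 1 lower. Hspa8, a chaperone gene with snoRNAs in its introns, rose from 422 ± 39.2 to 648 ± 119 CPM (SD, n = 5 and 4), a log2 fold change of 0.62 (SE 0.13, adjusted p = 0.00474). Over all 227 tested protein-coding hosts by annotation, 24 rose (10.6%) and 50 fell (22.0%), near the shares over all genes, and the median log2 fold change was -0.00. Of 18 genes for snoRNP core proteins and their assembly, 2 rose (11.1%) and 0 fell, both below the 14.0% higher and 19.3% lower over all tested genes. As lower, 0 passed by DESeq2 or had an unadjusted p under 0.05 in edgeR. The 2 higher genes were Pih1d1 with 0.38 (adjusted p = 0.00923) and Ruvbl2 with 0.24 (adjusted p = 0.0204), both subunits of the assembly machinery. Ruvbl2 was not called with library totals. Nop58, a core protein of box C/D particles, had 0.16 (adjusted p = 0.140).

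Genes tied to the turnover and the known partners of Gas5 were mixed, beside 14.0% higher and 19.3% lower over all tested genes. Of 17 nonsense-mediated decay and exon junction factors, 5 rose (29.4%), among them Upf3b (log2 fold change 0.60, adjusted p = 0.00501), Rbm8a (0.32, adjusted p = 0.0223) and Upf3a (0.29, adjusted p = 0.0190). The Rbm8a and Upf3a calls were lost with library totals, and the Upf3a call also without replicate 1 labelled FcgRIIB-/-, where 3 factors rose. Of the same 17, the kinase gene Smg1 (-0.20, adjusted p = 0.0435) and the endonuclease gene Smg6 (-0.21, adjusted p = 0.0340) fell (11.8%). These calls are weak, since that of Smg1 was lost in 12 and that of Smg6 in 8 of 16 alternatives. Of 17 mRNAs known as natural targets of this decay, 4 rose (23.5%) and 0 fell (0 also by DESeq2 and at an unadjusted p under 0.05 in edgeR), with the stress genes Ddit3 (0.52, adjusted p = 0.00243), Gadd45b (0.45, adjusted p = 0.0178) and Gadd45a (0.28, adjusted p = 0.0400) among them. The Gadd45a call was lost in 7 of 16 alternatives and the Gadd45b call without replicate 4 labelled FcgRIIB-/-. Without WT replicate 5 or replicate 3 labelled FcgRIIB-/-, 2 of the 17 rose. The other 13 did not pass, and Srsf6, the most abundant, had 0.24 (adjusted p = 0.0504) and passed in 7 of 16 alternatives.

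Of 15 glucocorticoid receptor target genes, 6 rose (40.0%) and 1 fell (6.67%), beside 14.0% higher and 19.3% lower over all tested genes, with a median log2 fold change of 0.44, which was 0.27 without replicate 3 labelled FcgRIIB-/-. The metallothionein genes Mt2 and Mt1 rose by 1.12 (adjusted p = 0.00711) and 1.03 (adjusted p = 0.00117) on the log2 scale, and Pdk4, a kinase that restrains glucose oxidation, rose by 0.78 (adjusted p = 0.0132). Lcn2, also a neutrophil granule gene, fell from 93.8 ± 39.5 to 11.8 ± 7.62 CPM (SD, n = 5 and 4), a log2 fold change of -2.97 (adjusted p = 0.00133). Of 16 other growth arrest-specific genes and inhibitors of cyclin-dependent kinases, 2 rose (12.5%, near the share over all genes) and 5 fell (31.2%). Cdkn1a, the p53 target p21, rose by 0.56 (adjusted p = 0.000615), while Gas7 had -0.62 (adjusted p = 0.0067), Gas6 -0.45 (adjusted p = 0.00563) and Cdkn2d -0.45 (adjusted p = 0.00309). Of 24 mTORC1 pathway genes, which govern the translation of TOP mRNAs, 3 rose (12.5%) and 2 fell (8.33%), both below the shares over all genes, and 5 rose without WT replicate 5. Eif4ebp2, an inhibitor of cap-dependent translation, fell from 36.1 ± 4.29 to 17.3 ± 3.19 CPM (SD, n = 5 and 4), a log2 fold change of -1.06 (SE 0.13, adjusted p = 0.000516). Larp1, the TOP-binding protein, had 0.10 (adjusted p = 0.398).

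Whether the hosts varied together was examined within genotype, after the genotype means had been removed, since this does not use the difference by which the hosts were chosen. Over 9 mice, Gas5 had a Pearson r between 0.42 (Snhg8) and 0.89 (Snhg1) with the other 7 hosts. The values were r = 0.889 (Spearman rho 0.85, exact permutation p = 0.0115 within genotype, two-sided) with Snhg1 and r = 0.887 (rho 0.75, exact permutation p = 0.00694) with Zfas1. Adjusted over 15 relations, they had p = 0.0573 and p = 0.0521 (exact permutation), and did not pass. Without the 2 mice farthest in Gas5 the r was 0.68 with Snhg1 and 0.82 with Zfas1, and between 0.25 (Snhg12) and 0.54 (Snhg5) with the other 5 hosts.

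The mean of the ribosomal protein mRNAs had r = 0.877 with Snhg8 (rho 0.75, exact permutation p = 0.0059, adjusted p = 0.0521) and r = 0.586 with Gas5 (rho 0.43, exact permutation p = 0.0875, adjusted p = 0.193). Without the 2 mice farthest in the ribosomal protein mean the r was 0.78 with Snhg8 and 0.20 with Gas5, so that the latter rests on those mice, and without replicate 3 labelled FcgRIIB-/- alone it was 0.29. In all, 0 of 15 relations passed by this test after adjustment and 3 had an unadjusted p under 0.05. Without WT replicate 1 the number passing was 1, and without WT replicate 5 it was 2. All values come from the same libraries and share their depth and scaling. Among 12913 genes whose log2 CPM averaged 2 or more, those most like Gas5 within genotype were taken by their r. The highest were Mterf3 (r = 0.94), a mitochondrial transcription factor, Pcnx4 (0.94), Ramac (0.93) and Polg2 (0.93), the small subunit of mitochondrial DNA polymerase. Next were Srsf10 (0.93), a splicing factor, Mgea5 (0.92), Adora2b (0.92), Ube3a (0.92), Kdm7a (0.91) and Edrf1 (0.91). These genes are only the top of a ranking of 12913 genes over few mice. Whether chance alone would give values as high at the top of such a ranking was not tested. No link of these genes to Gas5 is therefore read from the list.

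Marker genes of several cell types were lower in the labelled libraries, as was Gas5. Their counts stand beside 14.0% higher and 19.3% lower over all tested genes. All 15 tested neutrophil and myeloid marker genes fell, with a median log2 fold change of -3.13, and their summed level was 2348, 2368, 1702, 2489 and 4702 CPM in WT replicates 1 to 5 against 727, 384, 682 and 332 CPM in replicates 1 to 4 labelled FcgRIIB-/-. S100a9, the most abundant, was at 557 ± 282 and 102 ± 54.0 CPM (SD, n = 5 and 4). All 11 tested erythroid markers of 13 listed also fell, with a median of -3.65, and summed to 2569, 2244, 2184, 2493 and 2466 CPM against 145, 161, 287 and 573 CPM, with Hbb-bs, a beta globin gene, as the most abundant. Both lists were separate between the groups in every mouse. All 18 genes of mitotic cells fell, with Mki67 as the most abundant (log2 fold change -1.66), and summed to 786, 753, 597, 758 and 944 CPM against 370, 393, 354 and 281 CPM. Of 12 B lineage markers, 10 fell and the most abundant, Blnk, did not pass (0.36, adjusted p = 0.0554). Their sums were 102, 159, 85.3, 82.2 and 93.1 CPM against 63.5, 56.6, 67.3 and 84.5 CPM, and the groups overlapped.

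Epithelial markers split. Of 14 tested markers of keratinized oral epithelium, 11 fell, among them Lor, a cornified envelope protein (-6.75, adjusted p = 7.65e-05), and 1 rose, the basal keratin gene Krt5 (0.39, adjusted p = 0.0356), a call lost in 6 of 16 alternatives. The most abundant, Krt14, had 0.24 (adjusted p = 0.320). Their sums were 12822, 6370, 12862, 9256 and 23868 CPM against 5920, 6199, 5629 and 4850 CPM. Of 15 skeletal muscle markers, 7 rose and 0 fell (0 also by DESeq2 and at an unadjusted p under 0.05 in edgeR), and their sums were 21266, 9106, 14696, 18577 and 18150 CPM against 38439, 22125, 22893 and 36285 CPM, with Myh1 as the most abundant. None of the markers in these lists that had a row in the count table was at 0 in every mouse.

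Bone and tooth markers, which check the labelled tissue, were abundant in all 9 libraries, with sums between 56519 and 106298 CPM and Col1a1 as the most abundant at 31252 ± 5993 and 32590 ± 4597 CPM (SD, n = 5 and 4). Of these 14, 3 rose (21.4%) and 3 fell (21.4%) in edgeR's test, near the 14.0% higher and 19.3% lower over all tested genes. The enamel genes Amelx (1.34, adjusted p = 0.00757), Ambn (1.13, adjusted p = 0.0122) and Enam (0.99, adjusted p = 0.0116) rose. Ibsp (-0.64, adjusted p = 0.0426), Col1a2 (-0.52, adjusted p = 0.0191) and Sp7 (-0.25, adjusted p = 0.0160) fell. The Ibsp call was lost in 7 of 16 alternatives and the Col1a2 call without WT replicate 3 and without replicate 2 labelled FcgRIIB-/-, so that without WT replicate 3 only Sp7 fell. The part of these shifts in the levels of Gas5 and the other hosts was not tested.

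**Figure D5:**
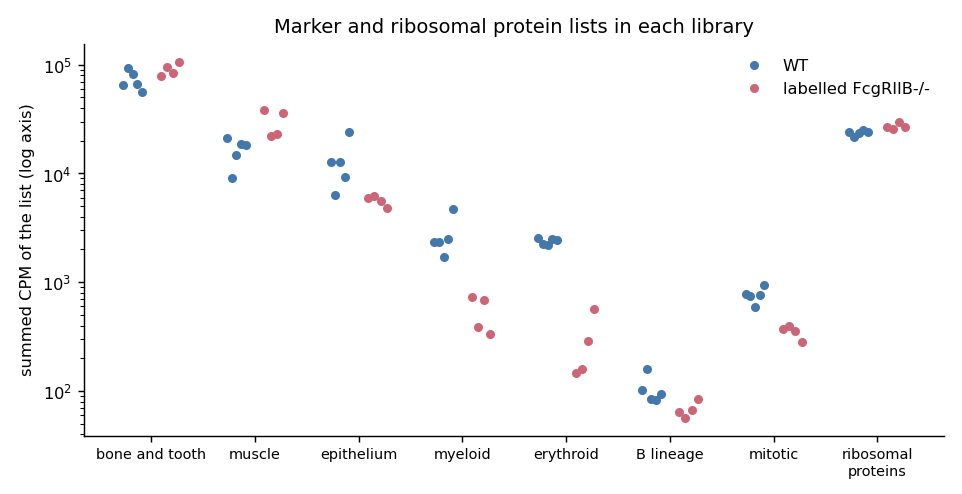
Summed CPM (log axis) of the marker lists and of the 76 ribosomal protein mRNAs in each library, WT in blue and labelled FcgRIIB-/- in red, with 1 point per mouse. The myeloid, erythroid and mitotic points of the labelled libraries lie below all WT points, the muscle and ribosomal protein points lie above them, and the bone and tooth points overlap.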

How the data were processed

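Per the labels and the study's methods, the authors used Trim Galore for trimming single-end reads, HISAT 02.1.0 for alignment to mm10, and featureCounts for counting per gene. The deposited values are these raw counts, without normalization. The gene annotation, the strand setting and the treatment of reads on several genes are not given in the sources used here. Of the table's columns, 1 matched no sample and was not used.

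From the counts, edgeR 4.0.16 (R 4.3.3; filterByExpr with a minimum count of 10, TMM, quasi-likelihood test, no covariate) compared the 4 libraries labelled FcgRIIB-/- with the 5 WT libraries, with Benjamini-Hochberg adjustment over 16329 genes at 0.05. Each SE is the size of the log2 fold change divided by the root of its F statistic, and log2 CPM used a prior count of 2. DESeq2 1.42.0, other scalings and filters, a replicate block and leaving out each mouse were alternatives. On simulated data for this comparison, with 200 of 16329 genes changed by a log2 fold change of 1, 82% were recovered and 4.65% of calls were false. No 2 libraries of a genotype had near-identical counts. Each library is a separate mouse by its label, and p-values measure the spread between these mice.

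The hosts and gene lists were chosen with earlier results of these data known. Named are the 8 hosts, the 13 other non-coding hosts, Fcgr2b, snoRNA rows and neighbours of the hosts, and the 10 genes most like Gas5. From each other list the most abundant gene and at most 3 called genes in each direction are named. Not every gene so named is reported here. Positions and start sites are from RefSeq (GRCm38.p6), and transcripts from GENCODE vM21.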

Additional observations from a re-analysis of the deposited data

Results flagged for a closer look

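Dixon's test at 95% was applied to 58 groups of 4 or 5 mice, and 4 had a mouse far from the others, where chance gives about 1 in 20. WT replicate 2 had an Fcgr2b level of 38.28 CPM, above the other 4 WT mice, and replicate 4 labelled FcgRIIB-/- had 32.13 CPM, above the other 3 of its group. WT replicate 5 had the highest sum of myeloid markers, 4702 CPM, and WT replicate 2 the highest sum of B lineage markers, 159.4 CPM. For Gas5 and the other 7 hosts no mouse was far from its group by this test.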

How the results depend on the processing

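The log2 fold changes of all 8 hosts moved by less than the spread between mice in the 16 alternatives, but those of Snhg1, Snhg3, Snhg5 and Snhg8 (0.15 with library totals) moved by more than 1.5 times in at least 1 of them. The number of genes called higher was 1309 with library totals and between 1781 and 2292 with 1 mouse left out, against 2289 in the report. With the replicate number as a block, which joins different mice, 1594 genes passed as higher and 2410 as lower, and Gas5 had -0.99, while mice sharing a number deviated together with a correlation between -0.11 and 0.10, so that the numbers do not pair the mice. For Snord47 the call was lost with library totals (0.72, adjusted p = 0.0596), with genes of at least 1 count in any mouse (0.79, adjusted p = 0.0539) and with the replicate block (0.82, adjusted p = 0.0578). With 1 mouse left out its log2 fold change was between 0.68 and 1.04, and it passed only without WT replicate 2 and without replicate 1 labelled FcgRIIB-/-. The number of relations within genotype past the threshold was between 0 and 2 with 1 mouse left out. Counts of called list members moved by more than 1.5 times as follows, besides the changes with 1 mouse left out that the report gives. With library totals, 13 ribosomal protein genes (28 in the report), 1 other TOP mRNA (4), 1 snoRNP gene (2), 2 decay factors (5) and 2 decay targets (4) were higher, 0 epithelial markers (1) were higher, 4 mTORC1 genes (2) were lower and 1 coding host (0) was lower. With DESeq2, 47 ribosomal protein genes, 13 coding hosts (7), 7 other TOP mRNAs, 4 snoRNP genes, 8 decay targets and 1 B lineage marker (0) were higher, and 1 coding host was lower. With upper-quartile scaling 12 coding hosts, and with it and RLE scaling 4 snoRNP genes, were higher, and RLE scaling gave 1 higher B lineage marker. With the replicate block 13 muscle markers (7) and 2 decay targets were higher, and 0 decay factors (2) and 0 other TOP mRNAs (1) were lower. With at least 1 count in any mouse, 1 other TOP mRNA and 2 decay targets were higher. With at least 10 counts in every mouse, which tests fewer genes, 7 erythroid (11) and 4 B lineage markers (10) were lower, and 4 snoRNP genes and 1 B lineage marker were higher. Lower decay factors numbered between 0 and 2 over all alternatives. With 1 mouse left out, 4 snoRNP genes were higher without WT replicate 5 and without replicate 1 or 4 labelled FcgRIIB-/-, and 1 B lineage marker was higher without WT replicate 2. With library totals the median log2 fold change was 0.13 for ribosomal proteins, 0.11 for coding hosts, 0.04 for other TOP mRNAs, 0.09 for snoRNP genes, 0.03 for decay factors and 0.09 for decay targets, each over 1.5 times smaller. The call of Zbtb37 held throughout. The tested snoRNA rows inside the hosts had fewer than 100 counts per mouse, which limits what could be detected there.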
